A study of Mus musculus with 6 samples.

Results

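Troponin is the calcium sensor of the muscle thin filament, and its 7 listed genes were followed here in aged mice with and without SELENOW, in the tibialis anterior (TA) muscle. They were chosen by name as the slow, fast and cardiac troponin subunits, and all 7 were found among the 55416 genes of the deposited count table. The samples were 3 WT and 3 SELENOW KO libraries of total RNA from skeletal muscle of mice that had aged naturally to 24 months. The KO line lacks exon 4 of Selenow in every tissue rather than in muscle fibers alone, both lines are on a C57BL/6N background, and the aged mice of the study were male. The labels do not name the animal behind each library, while the study describes its replicates as mice.

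Troponin is built from 3 subunits that sit along tropomyosin on the actin filament. Troponin C binds the calcium released at each contraction, troponin I holds the filament in the off state until then, and troponin T anchors the complex to tropomyosin. Each subunit has paralogs tied to fiber type: Tnni2, Tnnt3 and Tnnc2 are the fast skeletal forms, Tnni1 and Tnnt1 the slow skeletal forms, Tnnc1 serves slow muscle and heart alike, and Tnnt2 is the cardiac troponin T. The TA is a fast muscle. Slow and cardiac troponins are also made in embryonic muscle, and cardiac troponin T is known to return in regenerating or denervated fibers.

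The genes lie mostly in pairs of a troponin I beside a troponin T. Positions in the count table are those of GRCm39, the build named in the submitters' processing notes, although the paper's methods name GRCm38. Tnni1 (ENSMUSG00000026418) spans 135707172 to 135738727 on chromosome 1, plus strand, and Tnnt2 (ENSMUSG00000026414) spans 135764092 to 135779998 on the same strand, 25364 bases further on. Tnni2 (ENSMUSG00000031097) spans 141995545 to 141998147 on chromosome 7, plus strand, and Tnnt3 (ENSMUSG00000061723) spans 142052573 to 142069746, with 54425 bases between them. Tnnt1 (ENSMUSG00000064179) spans 4507569 to 4519381 on the minus strand of chromosome 7, beside Tnni3, the cardiac troponin I, at a gap of 1922 bases. The troponin C genes stand alone, Tnnc1 (ENSMUSG00000091898) from 30930269 to 30933686 on chromosome 14, plus strand, and Tnnc2 (ENSMUSG00000017300) from 164619081 to 164621887 on chromosome 2, minus strand.

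The sequences before the start sites of the 4 slow and cardiac genes are shown because these genes varied together across the libraries. RefSeq promoter windows (build GRCm38.p6) were found for 6 of 8 troponin genes, Tnni3 included, and not for Tnni2 and Tnnt3. Each line gives the 250 bases before the most upstream start in that table, 5′ to 3′ on the strand of the gene. Capitals mark an E-box CAGCTG, an MCAT element CATTCC or a TATAAA on either strand, none of which overlapped another. The windows are chr1:135799171-135799420 for Tnni1, chr1:135836084-135836333 for Tnnt2, chr7:4515976-4516225 (minus strand) for Tnnt1 and chr14:31208062-31208311 for Tnnc1. These RefSeq starts need not be the starts of the gene spans in the count table. The Tnni1 and Tnnt2 windows lie closer together than the starts of those spans, so a window can fall inside its span.
Tnni1: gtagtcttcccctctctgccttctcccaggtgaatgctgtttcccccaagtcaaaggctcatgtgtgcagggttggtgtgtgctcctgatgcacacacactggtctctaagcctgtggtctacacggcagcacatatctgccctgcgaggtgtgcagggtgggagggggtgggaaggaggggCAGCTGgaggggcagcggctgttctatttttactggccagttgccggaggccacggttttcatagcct
Tnnt2: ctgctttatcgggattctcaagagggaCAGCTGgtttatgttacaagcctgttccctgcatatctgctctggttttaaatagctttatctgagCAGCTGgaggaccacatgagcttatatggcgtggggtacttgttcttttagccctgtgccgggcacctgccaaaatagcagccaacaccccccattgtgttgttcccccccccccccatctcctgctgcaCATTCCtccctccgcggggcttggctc
Tnnt1: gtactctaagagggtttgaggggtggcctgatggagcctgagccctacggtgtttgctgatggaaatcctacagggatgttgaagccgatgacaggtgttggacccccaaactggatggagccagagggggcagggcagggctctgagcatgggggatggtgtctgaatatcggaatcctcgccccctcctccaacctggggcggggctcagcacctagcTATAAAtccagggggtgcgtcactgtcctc
Tnnc1: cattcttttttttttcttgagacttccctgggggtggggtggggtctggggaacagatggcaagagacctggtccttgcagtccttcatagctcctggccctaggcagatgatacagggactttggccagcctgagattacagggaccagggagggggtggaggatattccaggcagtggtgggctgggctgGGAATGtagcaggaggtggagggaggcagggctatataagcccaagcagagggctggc

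Tnni1 held 1 E-box and Tnnt2 held 2 of them, a motif read by MyoD family factors and found in 12.7% of 27025 promoters of the same length. Tnnt2 and Tnnc1 each held an MCAT element, the site of TEAD factors, found in 12.6% of those promoters. In Tnnt2 it lay at -27 to -22 from the start, and in Tnnc1 at -58 to -53 on the opposite strand. Tnnt1 held a TATAAA at -30 to -25, against 13% of all promoters. No MEF2 site (in 3.03% of promoters) or CArG box (1.41%) matched in any of the 6 windows, and the Tnnc2 and Tnni3 windows held none of the 5 motifs. These matches describe letters in the window and were not tests of binding.

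The 6 libraries held 25351976 to 29111213 counts, and mitochondrially encoded genes took 29.1% to 40.3% of them. CPM below is the TMM-scaled abundance of a gene (counts relative to library size, corrected for composition). Values by library are given in the order of replicates 1, 2 and 3. Selenow itself measured 219 to 268 CPM among WT and 193 to 212 CPM among KO libraries, and a count over the whole gene is no direct check on the loss of 1 exon. The genotypes were compared with edgeR's quasi-likelihood test over 15623 genes that passed its filter on low counts. A gene was called by the study's thresholds, an unadjusted p under 0.05 with a fold change over 1.5 or under 0.7. The study applied these thresholds to DESeq2 results, whereas edgeR was the main fit here. By edgeR 5.35% of the tested genes were called, 3.14% as lower and 2.21% as higher in KO. No gene had an adjusted p under 0.05 with edgeR, where 1545 (9.89%) had an unadjusted p under 0.05, and DESeq2 gave 49 (0.314%).

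All 7 troponin genes passed the filter, and none of them was called by edgeR or had an unadjusted p under 0.05. The 3 fast genes lay at 3111 CPM or above in every library, with nearly equal levels in both genotypes. The 4 slow and cardiac genes lay at a few CPM, averaged lower in KO muscle, and varied widely among the WT libraries, with overlapping groups for each. In bulk muscle, fewer cells of a type and less RNA per cell cannot be told apart. None of the 7 genes had WT and KO libraries wholly apart, against 7.87% of all tested genes apart with KO lower and 7.53% with KO higher. The median log2 fold change of the 7 genes was -1.29, which is the value of Tnnt1 and does not describe the 3 fast genes. The median over all tested genes was -0.0042. With DESeq2, the tool of the study, Tnni1, Tnnt2 and Tnnc1 were called as lower on the same counts. By that fit 3.06% of all genes were called as lower, and none of the 7 genes had an adjusted p under 0.05. With robust estimation turned off in edgeR all 4 slow and cardiac genes were called (3.55% of all genes were, as lower), and with no filter on low counts Tnnc1 alone was (3.66%).

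**Figure D1:**
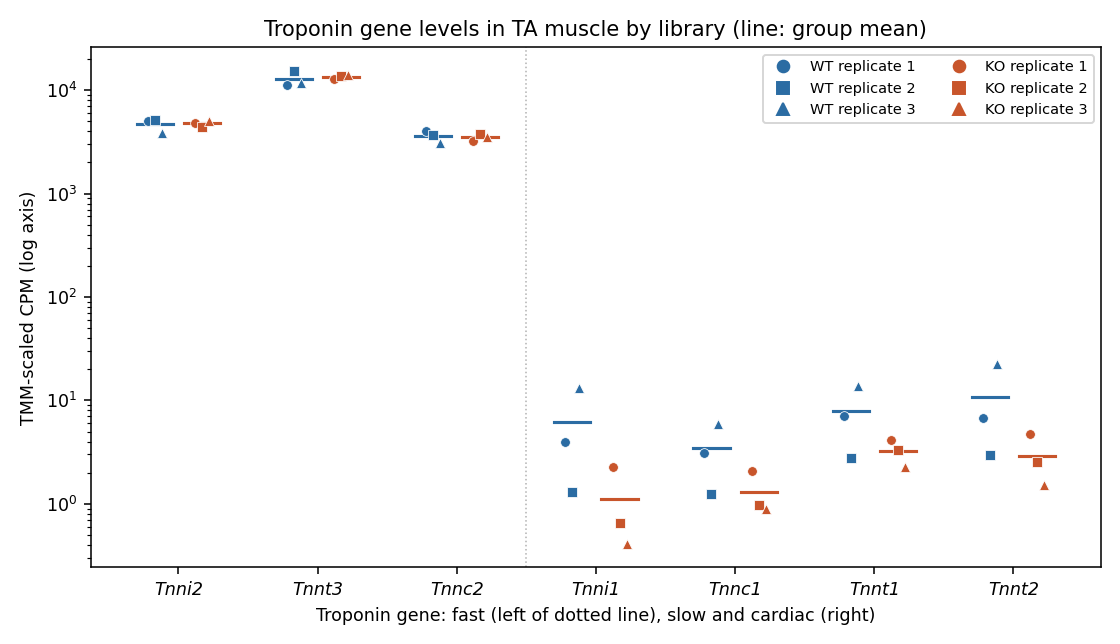
TMM-scaled CPM (log axis) of each troponin gene in 3 WT libraries (blue) and 3 KO libraries (orange), with marker shapes for replicates and lines for group means. The 3 fast genes lie between 3111 and 15301 in all libraries, while the 4 slow and cardiac genes lie between 0.411 and 22.7, each highest in WT replicate 3.

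Among the fast genes, Tnni2, the inhibitory subunit of fast fibers, measured 5063, 5135 and 3882 CPM across the WT libraries and 4856, 4385 and 5055 CPM across the KO libraries. WT replicate 3 was the lowest of all 6 and the groups overlapped. The log2 fold change was 0.022 (standard error 0.18, 95% interval -0.36 to 0.40, adjusted p = 0.976 from edgeR).

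Tnnt3, fast troponin T, was the highest of the family, at 11261, 15301 and 11753 CPM across the WT libraries and 12918, 13542 and 14039 CPM across the KO libraries. The KO libraries lay inside the WT range. Its log2 fold change was 0.080 (standard error 0.18, 95% interval -0.32 to 0.48, adjusted p = 0.915 from edgeR).

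Tnnc2, the fast calcium-binding subunit, measured 4025, 3695 and 3111 CPM across the WT libraries and 3252, 3765 and 3538 CPM across the KO libraries. Here too the KO values fell within the WT range. The log2 fold change was -0.037 (standard error 0.17, 95% interval -0.40 to 0.33, adjusted p = 0.959 from edgeR). The 95% intervals of the 3 fast genes thus reached from -0.40 to 0.48, and the direction of each turned in some of the fits that left out 1 library.

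The Tnnc2 counts cannot be told apart from those of Ube2c, a gene of mitotic protein degradation on the opposite strand. Ube2c exons cover 592 of the 800 exon bases of Tnnc2, or 74% of them. Ube2c held 99124, 118513 and 94308 counts across the WT libraries and 80770, 92239 and 94615 across the KO libraries, which is 99.9% to 100.04% of the Tnnc2 count in each library. The table therefore gives nearly the same number of reads to both genes. Exons of the other 6 listed genes overlapped no other gene in the table.

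The slow and cardiac genes were read at 11 to 689 counts per library. Tnni1, slow troponin I, held 98, 42 and 404 counts across the WT libraries and 56, 16 and 11 across the KO libraries, or a CPM of 3.98, 1.31 and 13.3 against 2.26, 0.652 and 0.411. WT replicate 3 stood far above the rest, and KO replicate 1 lay above WT replicate 2. The log2 fold change was -2.49 (standard error 1.18, 95% interval -5.64 to 0.65, unadjusted p = 0.0942 and adjusted p = 0.593 from edgeR).

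Tnnt1, slow troponin T, measured 7.06, 2.80 and 13.7 CPM across the WT libraries and 4.11, 3.30 and 2.24 CPM across the KO libraries. KO replicates 1 and 2 exceeded WT replicate 2. Its log2 fold change was -1.29 (standard error 0.64, 95% interval -2.93 to 0.35, adjusted p = 0.600 from edgeR).

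Tnnt2, cardiac troponin T, measured 6.69, 2.99 and 22.7 CPM across the WT libraries and 4.71, 2.53 and 1.53 CPM across the KO libraries. The order of the libraries was that of Tnni1, its neighbor on chromosome 1. Its log2 fold change was -1.89 (standard error 0.97, 95% interval -4.49 to 0.71, adjusted p = 0.617 from edgeR).

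Tnnc1, the troponin C of slow muscle and heart, measured 3.12, 1.25 and 5.96 CPM across the WT libraries and 2.05, 0.978 and 0.898 CPM across the KO libraries. Once more WT replicate 3 was highest and KO replicate 1 exceeded WT replicate 2. The log2 fold change was -1.39 (standard error 0.63, 95% interval -2.91 to 0.12, unadjusted p = 0.0651 and adjusted p = 0.542 from edgeR), the lowest p of the family. With DESeq2 the unadjusted p was 0.0036 and the adjusted p was 0.200. The paper reports lower Tnnc1 in KO muscle by RNA-seq and by qPCR. It reports the same for Myod1, Myog, Chrng, Myl4, Myl6b and Myoz2, which are taken up below.

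The size of these differences rested on WT replicate 3. Its CPM was 5.04 times the mean of the other WT libraries for Tnni1, 4.69 times for Tnnt2, 2.79 times for Tnnt1 and 2.73 times for Tnnc1. Over all tested genes, WT replicate 3 was the highest of the 6 libraries for 16.3%. Without it the log2 fold changes were -1.24 for Tnni1 (95% interval -3.52 to 1.02), -0.72 for Tnnt2 (-2.13 to 0.69), -0.61 for Tnnt1 (-1.59 to 0.38) and -0.72 for Tnnc1 (-1.82 to 0.37), and none was called, where 3.25% of genes were called as lower. Without WT replicate 2, the lowest WT library for all 4, the calls moved the other way: all 4 genes were called as lower, with log2 fold changes of -2.97, -2.33, -1.69 and -1.80 in the same order and adjusted p values of 0.270 to 0.518 from edgeR, where 3.84% of genes were called as lower.

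**Figure D2:**
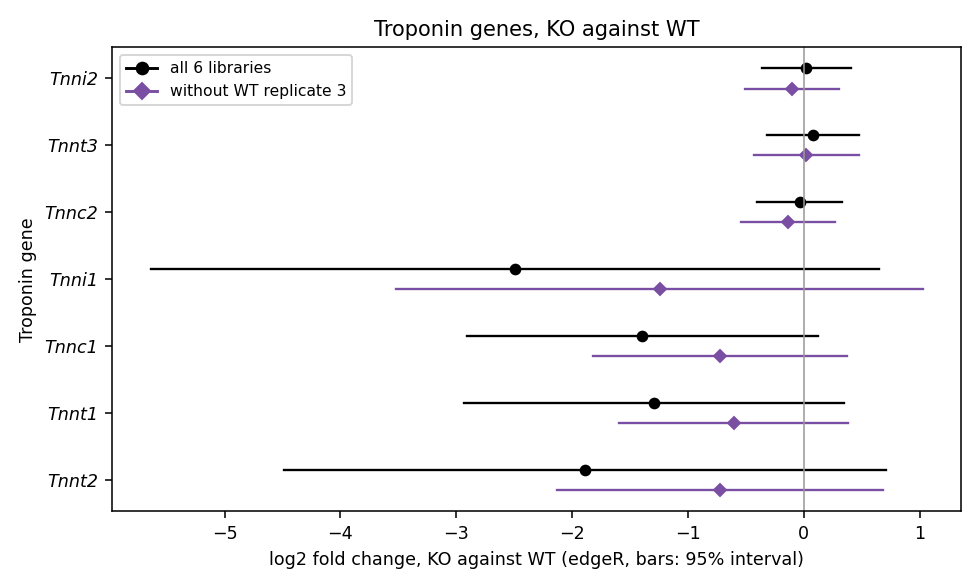
Log2 fold change of KO against WT for each troponin gene from edgeR, with 95% intervals, over all 6 libraries (black circles) and without WT replicate 3 (purple diamonds). Both intervals include 0 for every gene, and the slow and cardiac genes move toward 0 without that library, Tnni1 from -2.49 to -1.24.

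Compared per length of exon, the fast genes lay far above the others. Mean levels in WT, as CPM per kilobase, were 8068 ± 1393 for Tnnt3, 4513 ± 579 for Tnnc2 and 3135 ± 470 for Tnni2 (SD, n = 3 each), and the ranges of these 3 genes did not overlap in either genotype. The 4 others followed in WT at 3.57 ± 2.5 for Tnnt1, 3.31 ± 2.28 for Tnnc1, 1.72 ± 1.75 for Tnni1 and 1.39 ± 1.35 for Tnnt2 (SD, n = 3 each), and the WT ranges of these 4 overlapped. Within libraries Tnnc1 exceeded Tnni1 in 6 of 6, and in KO muscle the ranges of these genes were apart (0.862 to 1.97 for Tnnc1 and 0.114 to 0.627 for Tnni1). Tnnt1 exceeded Tnnc1 in 5 of 6 libraries and Tnni1 exceeded Tnnt2 in 3 of 6. In KO muscle the means on this scale were 1.46, 1.26, 0.307 and 0.377 in the same order of genes. The value of Tnnt2 depends on its long counted length of 7752 bases. Tnni3 had 0 to 10 counts per library and did not pass the filter.

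The isoform share, in which library size and scaling cancel, was then taken within each subunit. Tnni1 made up 0.0326%, 0.0106% and 0.142% of troponin I per length across the WT libraries and 0.0193%, 0.00619% and 0.00338% across the KO libraries. The mean share was 0.0619% ± 0.0706 for WT libraries and 0.00963% ± 0.00850 for KO libraries (SD, n = 3 per genotype), and the groups overlapped (exact permutation test, two-sided, p = 0.2, where 3 against 3 cannot go under 0.1). The exact 95% counting interval was 0.129% to 0.157% in WT replicate 3 and 0.0265% to 0.0398% in WT replicate 1.

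Tnnc1 made up 0.0775% ± 0.0625 of troponin C for WT libraries and 0.0293% ± 0.0166 for KO libraries (SD, n = 3 per genotype; exact permutation test, two-sided, p = 0.2). For troponin T, the slow share of Tnnt1 was 0.0473% ± 0.0354 for WT libraries and 0.0173% ± 0.00568 for KO libraries (SD, n = 3 per genotype; exact permutation test, two-sided, p = 0.3). The cardiac share of Tnnt2 was 0.0185% ± 0.0185 for WT libraries and 0.00450% ± 0.00268 for KO libraries (SD, n = 3 per genotype; exact permutation test, two-sided, p = 0.2). In every library nearly all counts per length of each subunit came from the fast gene, and no slow or cardiac share passed 0.147%. Without WT replicate 3 the difference between KO and WT shrank from -0.0522 to -0.0120 percentage points for Tnni1, from -0.0482 to -0.0134 for Tnnc1, from -0.0300 to -0.0118 for Tnnt1 and from -0.0140 to -0.00356 for Tnnt2. The sum over both troponin I genes averaged 3137 ± 468 CPM per kilobase for WT libraries and 3184 ± 230 for KO libraries (SD, n = 3 per genotype; exact permutation test, two-sided, p = 1).

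**Figure D3:**
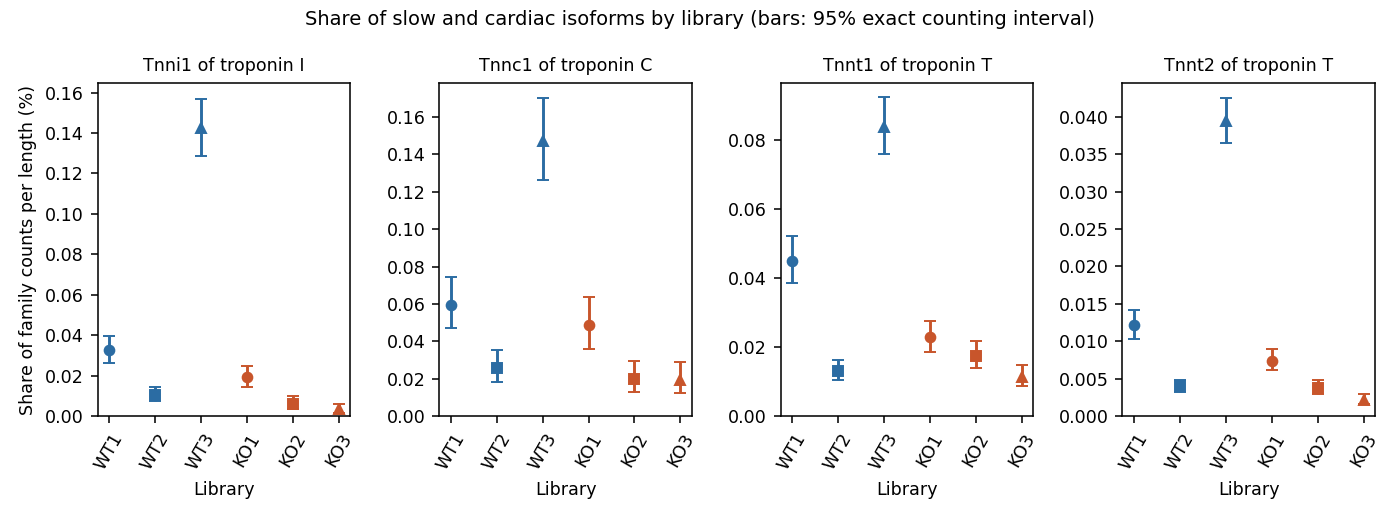
Share of each slow or cardiac gene in its subunit's counts per length (%), by library, with 95% exact counting intervals; WT in blue, KO in orange, axes from 0. WT replicate 3 is highest in all 4 panels, at 0.142% for Tnni1, and WT replicate 2 lies within the range of the KO libraries in each.

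The 4 slow and cardiac troponins varied together from library to library. On log2(CPM + 1) values over the 6 libraries, Pearson's r was 0.976 to 0.994 among their 6 pairs, and 0.921 to 0.986 over the 5 libraries left without WT replicate 3. The 3 fast genes showed no such pattern, with r of 0.082 to 0.584. These are descriptions over few libraries, whose labels name no preparation batch.

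The slow fiber genes varied in several ways over the libraries. Myh7, the slow myosin heavy chain, measured 2.96, 2.18 and 1.15 CPM across the WT libraries and 2.5, 3.67 and 0.823 CPM across the KO libraries. WT replicate 3, the highest library for slow troponins, was the lowest WT library for Myh7, and r against the 4 troponins was -0.18 to -0.10 (n = 6 libraries). Without WT replicate 3 it turned positive, at 0.405 to 0.603 (n = 5 libraries). Myl2, the slow regulatory light chain, had r of -0.17 to -0.083 with all libraries and -0.211 to -0.041 without that library, and Myl3, the slow essential light chain, had 0.668 to 0.785 and 0.739 to 0.880. Of the 13 slow fiber genes 4 were highest in WT replicate 3: Myl6b, Atp2a2, Casq2 and Myoz2, the last 3 at 33.1, 36.0 and 13.6 CPM there. Myl4, the embryonic and atrial light chain, had r of 0.950 to 0.968 and Mymk, the myoblast fusion protein myomaker, of 0.984 to 0.993 against the same 4 genes. Myl4 measured 9.29, 5.54 and 33.0 CPM across the WT libraries and 6.0, 4.57 and 4.71 CPM across the KO libraries. Embryonic myosin Myh3 differed from these, with r of 0.217 to 0.315 and its highest value in WT replicate 2.

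**Figure D4:**
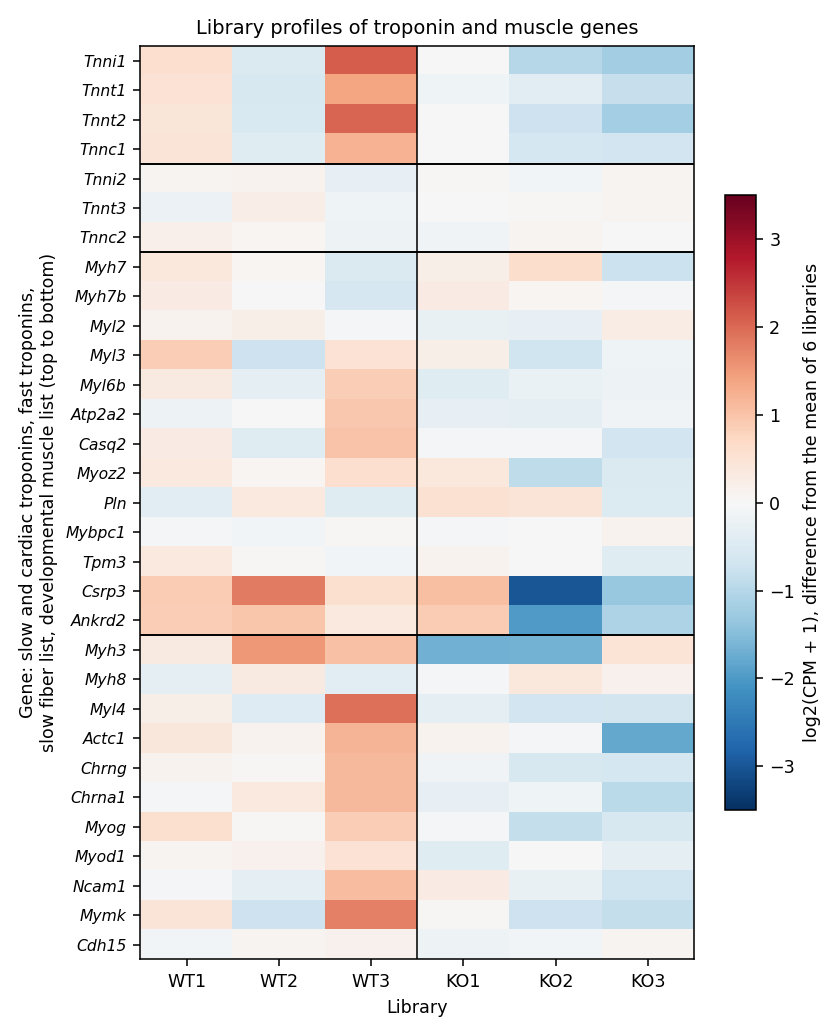
Difference of log2(CPM + 1) from the gene's mean over 6 libraries (color), for the slow and cardiac troponins, the fast troponins, the slow fiber list and the developmental muscle list, top to bottom. The top block and Myl4, Mymk and Chrng are highest in WT replicate 3, as are Myl6b, Atp2a2, Casq2 and Myoz2, 4 of the 13 slow fiber genes.

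Among 11121 tested genes with a mean of at least 50 counts, the genes most like each troponin were named by r over the 6 libraries. For Tnni1 these were Lgals3 (0.993), Emp1 (0.989) and Ccdc141 (0.985), and for Tnnt2 they were C1qc (0.997), Lgals3 (0.996) and Lyz2 (0.993). For Tnnt1 they were Tuba1b (0.993), Lyz2 (0.991) and Tmsb10 (0.990), and for Tnnc1 they were Lgals3 (0.992), Tmsb10 (0.990) and Ccdc141 (0.990). Lgals3, C1qc and Lyz2 are abundant in macrophages, and Tuba1b and Tmsb10 in growing or dividing cells, while Emp1 and Ccdc141 were assigned to neither. The macrophage gene Cd68 was highest in KO replicate 1 instead, and the cells behind these likenesses were not tested. Tnni2 was most like Tmem230 (0.993), Crcp (0.980) and Osgep (0.978), and Tnnt3 most like Gm21969 (0.986), Bnip3l (0.985) and Kctd20 (0.984). Tnnc2 was followed by Ube2c, its overlapping gene (r = 1 after rounding), then by Mcrs1 (0.987) and Ctsa (0.979).

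The summed leukocyte and fibroblast markers were also highest in WT replicate 3, while the summed endothelial markers were lowest there (49.0 CPM, against 61.9 to 87.7 in the other libraries). The summed CPM of 6 leukocyte genes was 49.1 in WT replicate 3, 19.9 and 11.7 in WT replicates 1 and 2 and 10.4 to 19.5 in KO. Of this list 5 genes were tested, 1 was called as higher (Cd3e) and none as lower. Over all tested genes 2.21% were called as higher and 3.14% as lower. Lyz2 alone made up 37.2 CPM of the leukocyte sum in WT replicate 3. Of the 6 genes 3 were highest in that library (Lyz2, Ptprc and Adgre1), while Cd68, a macrophage gene, was highest in KO replicate 1 (5.92 CPM, against 5.53 in WT replicate 3), Cd79a in KO replicate 1 and Cd3e in KO replicate 3. The 6 fibroblast and tendon genes summed to 211 in WT replicate 3, 116 and 66.1 in WT replicates 1 and 2 and 57.8 to 115 in KO. None of the 5 tested was called, against 5.35% of all tested genes. The part of these markers in the troponin values was not tested. Of 7 heart genes 1 passed the filter: Myh6 did, while the atrial light chain Myl7 had 0 counts in every library, and Ryr2, Mybpc3 and Nppb had 0 to 2.

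The partners of troponin on the thin filament came next. Of 12 thin filament genes 11 were tested and none was called, against 5.35% of all tested genes, with a median log2 fold change of 0.0059. Tpm1, the alpha tropomyosin, differed by 0.17 on the log2 scale (standard error 0.17) and Acta1, skeletal actin, by -0.13 (standard error 0.18). Tpm3, the slow tropomyosin, averaged 14.8 ± 2.51 CPM for WT libraries and 12.8 ± 2.55 CPM for KO libraries (SD, n = 3 per genotype). Actc1, cardiac actin, differed by -1.0 (standard error 0.62, adjusted p = 0.664 from edgeR). It measured 69.8, 57.2 and 120 CPM across the WT libraries and 57.2, 51.6 and 14.6 CPM across the KO libraries, so that the groups just failed to overlap.

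Of the 13 slow fiber genes all were tested, 1 was called as lower and none as higher, where 3.14% of all tested genes were called as lower, and the median log2 fold change was -0.55. The called gene was Myl6b, a slow and embryonic light chain, with mean CPM values of 4.54 ± 2.22 for WT and 2.58 ± 0.290 for KO libraries (SD, n = 3 per genotype). Its change on the log2 scale was -0.81 (unadjusted p = 0.0361, adjusted p = 0.477 from edgeR). Without WT replicate 3 none of the 13 was called, against 3.25% of all genes as lower, and the median was -0.31. The log2 difference was -0.32 for Myl2 (standard error 0.35) and -0.55 for Myl3 (standard error 0.51). Of the 13 fast fiber genes none was called, against 5.35% of all tested genes, with a median of 0.078. Myh4 and Myh1, the main fast myosins, had log2 fold changes of 0.22 and 0.19 (standard errors 0.20 and 0.17).

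Developmental muscle genes were lower on average in KO as well. Of 12 genes 11 were tested, 4 were called as lower and none as higher, against a background of 3.14% called as lower, and the median log2 fold change was -1.10. The 4 called genes were Chrng and Chrna1, subunits of the acetylcholine receptor, and the myogenic factors Myog and Myod1. Myog averaged 5.49 ± 1.76 CPM for WT and 2.28 ± 0.924 CPM for KO libraries (SD, n = 3 per genotype). Its change was -1.27 on the log2 scale (unadjusted p = 0.00282, adjusted p = 0.299 from edgeR). With DESeq2 the adjusted p of Myog was 0.0375. Chrna1 averaged 12.5 ± 5.88 CPM for WT and 5.88 ± 1.79 CPM for KO libraries (SD, n = 3 per genotype), -1.10 on the log2 scale (unadjusted p = 0.0319, adjusted p = 0.469 from edgeR). Chrng held 20, 22 and 80 counts across the WT libraries and 13, 3 and 2 across the KO libraries. In 5 of the 11 tested genes the groups did not overlap and KO was lower, where 7.87% of all tested genes did so: the 4 called genes and Actc1, which stands in this list as well as among the thin filament genes. The log2 difference was -1.63 for Myh3 (standard error 0.83) and 0.27 for Myh8, the perinatal myosin (standard error 0.22). Whether reads of Myh8 are shared with its related neighbors Myh1 and Myh4 was not tested. Of these genes 9 of 11 were highest in WT replicate 3, and without it the median was -0.63 and 4 were called, Myl4 in the place of Myod1.

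**Figure D5:**
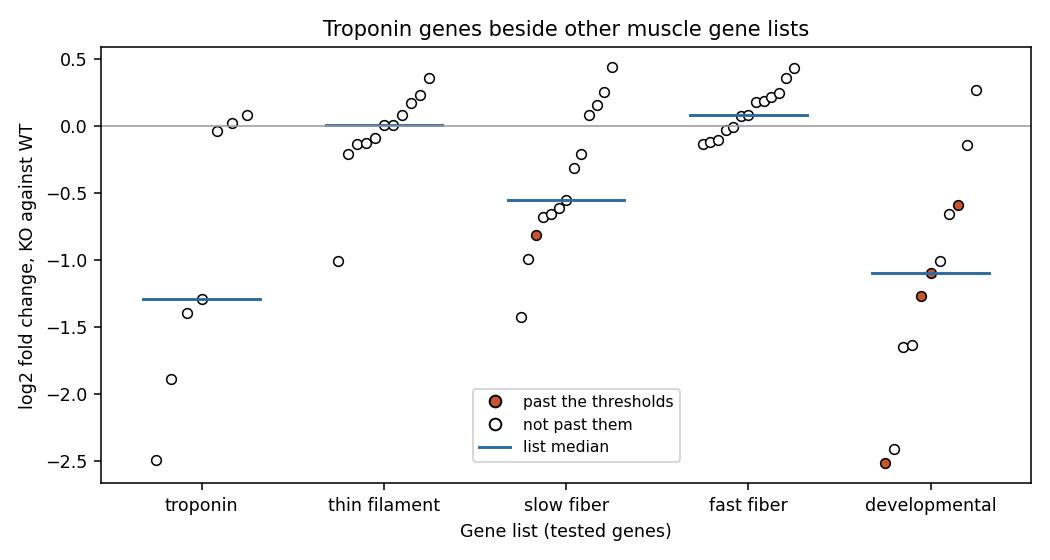
Log2 fold change of KO against WT for each tested gene of 5 lists, with called genes filled and a blue line at the list median. The troponin list has a median of -1.29 from its 4 slow and cardiac genes while its 3 fast genes lie near 0, and only the slow fiber (1) and developmental (4) lists hold called genes.

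Lad1, the gene between Tnni1 and Tnnt2, had 1 count in WT replicate 2 and 0 in the other libraries, which is too few to compare. Lsp1, a leukocyte gene between Tnni2 and Tnnt3, measured 8.19, 6.76 and 11.8 CPM across the WT libraries and 8.46, 5.71 and 6.70 CPM across the KO libraries. The Lsp1 values peaked in WT replicate 3, where Tnni2 was lowest. These neighbors were chosen after the counts were seen.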

How the data were processed

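The data are gene counts of 6 RNA-seq libraries, 3 per genotype. Alignment was done with Hisat2 and counting per gene with featureCounts by the authors, who deposited raw counts for 55416 genes with gene lengths. The handling of strand and of reads shared by several genes is not given in the sources used here. Of the gene positions, 1494 of 52083 matched GENCODE M21 (GRCm38). Symbols were found for 52083 genes by identifier. The first WT column carries no number and was taken as replicate 1, since the others name replicates 2 and 3. Replicates were separate libraries (chi-square per degree of freedom 19.3 to 70.5).

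Genes were kept with filterByExpr, scaled by TMM (factors 0.893 to 1.20) and compared with edgeR (version 4.0.16, R 4.3.3) by a robust quasi-likelihood fit without covariates, with Benjamini-Hochberg adjustment over 15623 genes. Standard errors and 95% intervals come from the same fit. Isoform shares are counts divided by gene length, compared by exact permutation over libraries, with Clopper-Pearson intervals that cover counting error only; 3 counts came to a CPM of 0.103 to 0.118. The steps were tested on simulated data. DESeq2 (version 1.42.0) and the other alternatives are given in the closing section.

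The members, lists and thresholds were chosen with earlier results of these data known, so list counts are descriptions and no list was tested. Named were all members and Tnni3, called genes of each list up to the 5 largest, a fixed set of myosin, actin and tropomyosin genes, and the 3 genes most alike to each member. The other genes (Ube2c, Lad1, Lsp1, Myl4, Mymk, Lyz2 and other single markers, Atp2a2, Casq2, Myoz2 and those of the closing section) were picked with their values in view. Same-numbered libraries did not deviate together.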

Additional observations from a re-analysis of the deposited data

How the results depend on the processing

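Counts of called genes moved with the processing. With DESeq2, 3 of 7 troponin and 4 of 13 slow fiber genes were called, all as lower, against 0 and 1 with edgeR. Of all genes 3.06% were called as lower by DESeq2 and 3.14% by edgeR. By an adjusted p under 0.05, a rule added after seeing the data, DESeq2 called 0 troponin genes, against 0.314% of all genes. With no filter on low counts 1 troponin gene (Tnnc1) and 3 slow fiber genes were called, where 3.66% of all genes were called as lower. With robust estimation turned off the calls were 4 troponin, 1 thin filament, 2 slow fiber and 8 developmental genes, where 3.55% of all genes were called as lower. These list counts take in either direction, and the shares of all genes called as higher in these fits were not taken. With a fold change over 2 or under 0.5, 0 slow fiber genes were called, and the share of all genes at that threshold was not taken. Leaving out each library in turn gave 0 to 4 troponin, 0 to 4 slow fiber, 0 to 1 fast fiber and 2 to 7 developmental genes, where 5.05% to 6.66% of all tested genes were called and 2.46% to 4.17% were called as lower. The highest count of each list came without WT replicate 2. In that fit Myl3, Myl6b and Casq2 of the slow fiber list were lower in KO, but Pln was higher (log2 fold change 0.86). The fast fiber call, Actn3, was also higher (0.63). The developmental calls there were all lower and included Mymx, which did not pass the filter over all 6 libraries. The lowest slow fiber count came without WT replicate 3 or KO replicate 2, and the lowest developmental count without KO replicate 1. The same fits moved the log2 fold change of Tnni2 from -0.099 to 0.094, of Tnnt3 from -0.0028 to 0.23 and of Tnnc2 from -0.14 to 0.048, so their signs are not fixed, while Tnni1 stayed at -3.53 to -1.24, Tnnt2 at -2.41 to -0.72, Tnnt1 at -1.69 to -0.61 and Tnnc1 at -1.86 to -0.72. The cause was not tested. With the replicate block 1 troponin gene (Tnnc1, -1.24, unadjusted p = 0.0422 from edgeR) and 3 slow fiber genes were called, where 3.5% of all genes were called as lower. The numbers did not pair the libraries: deviations of same-numbered libraries correlated at 0.0909, 0.0420 and -0.0978, and WT replicate 2 was closest to KO replicate 3. The isoform share differences kept their sign in all 8 alternatives each, with exact p values of 0.2 to 0.6 from permutation, or from sign flips with the replicate block. With 1 library left out the permutation p cannot go under 0.2, and the sign-flip p cannot go under 0.25. The differences shrank the most without WT replicate 3, to -0.0120 percentage points for Tnni1, -0.0134 for Tnnc1, -0.0118 for Tnnt1 and -0.00356 for Tnnt2. Tnni1 had 11 to 56 counts per KO library.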

Other observations

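Of 21 markers of other cells that were tested, 4 had KO libraries wholly above the WT libraries, where 7.53% of all tested genes did so, and none had them wholly below. Cd3e, a T cell gene, averaged 1.10 ± 0.267 CPM for WT and 2.48 ± 0.969 CPM for KO libraries (SD, n = 3 per genotype), 1.16 higher on the log2 scale (unadjusted p = 0.00498, adjusted p = 0.316 from edgeR), while Lyz2 of the same list differed by -1.45 (adjusted p = 0.638). Myh11, the smooth muscle myosin, averaged 7.71 ± 1.89 CPM for WT and 13.6 ± 3.6 CPM for KO libraries (SD, n = 3 per genotype), 0.83 higher on the log2 scale (unadjusted p = 0.00580, adjusted p = 0.331 from edgeR). Tagln, another smooth muscle gene, differed by 0.27 (unadjusted p = 0.110, adjusted p = 0.608 from edgeR). Cdh5, the cadherin of endothelium, differed by 0.50 (unadjusted p = 0.00835, adjusted p = 0.340 from edgeR). Neither was called, and Cdh5 missed only the fold change threshold. Acta2, also of the smooth muscle list, differed by -0.078 (adjusted p = 0.951 from edgeR) and was highest in WT replicate 3. Of 3 Schwann cell genes tested none was called, against 5.35% of all tested genes, and no adipocyte gene passed the filter.

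Across subunits, troponin T over troponin I per length was 2.59 ± 0.426 for WT libraries and 2.69 ± 0.209 for KO libraries, and troponin C over troponin I was 1.44 ± 0.0851 and 1.39 ± 0.190 (SD, n = 3 per genotype; exact permutation test, two-sided, p = 0.8 for both). The troponin C values carry the reads shared with Ube2c.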
